A study of Mus musculus with 12 samples.

Results

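The 10 genes described here mark skeletal muscle that is being built or rebuilt. They are Pax7, Myf5, Myod1, Myog, Mymk, Myh3, Myh8, Actc1, Chrna1 and Chrng, and they were found by mouse symbol among the 55401 genes of the deposited table, all 10 of 10. Expression was measured by poly(A) RNA sequencing in skin dermis of C57BL/6 mice aged 6 weeks in a wounding experiment. There were 4 groups with 3 biological replicates each, 12 samples in all: wild type (WT) on day 0, Cthrc1-/- on day 0, WT on day 7 and Cthrc1-/- on day 7. Cthrc1, the deleted gene, encodes a secreted protein of tissue repair. The labels give no treatment beside the wounds, do not say whether day 0 tissue had been cut, and do not say whether a replicate is 1 mouse or a pool. The question asked of these genes was whether skin muscle regenerates on day 7.

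Mouse skin carries a thin sheet of skeletal muscle, the panniculus carnosus, under the dermis, which can be included or left behind when a skin sample is taken. When muscle is injured, satellite cells marked by the transcription factor Pax7 leave quiescence, switch on the myogenic factors Myf5 and Myod1, and become myoblasts. Myog then drives their differentiation, the membrane protein encoded by Mymk lets them fuse, and the young fibres use embryonic and perinatal myosins (Myh3, Myh8), cardiac alpha-actin (Actc1) and the fetal acetylcholine receptor subunit Chrng before the adult forms replace them.

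The proximal promoters below are those of 3 genes with low or absent counts in the same samples (Myog, Chrng, Actc1) and of 1 without (Chrna1). Myh3, Myh8 and Myf5 also had low or absent counts in those samples, but their windows are not printed. The sequences are from RefSeq on GRCm38.p6, with entries for 8 of the 10 genes, and run on the gene's strand from 250 bases before the RefSeq start up to the first annotated exon base. Capitals mark E-boxes, the CANNTG motif bound by myogenic basic helix-loop-helix factors, in Myog, Chrng and Chrna1, and the CArG box, bound by serum response factor, in Actc1. The windows of Chrng and Actc1 lie in introns of longer gene models of the GENCODE annotation, and a match in Myog 12 bases before the RefSeq start lies outside the printed stretch.
Myog (chr1:134289754-134289988, plus strand): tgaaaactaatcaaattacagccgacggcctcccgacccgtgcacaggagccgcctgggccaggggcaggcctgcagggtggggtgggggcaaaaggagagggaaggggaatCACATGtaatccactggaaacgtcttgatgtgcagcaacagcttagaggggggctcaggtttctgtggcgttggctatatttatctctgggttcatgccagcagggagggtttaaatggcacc
Chrng (chr1:87205561-87205809, plus strand): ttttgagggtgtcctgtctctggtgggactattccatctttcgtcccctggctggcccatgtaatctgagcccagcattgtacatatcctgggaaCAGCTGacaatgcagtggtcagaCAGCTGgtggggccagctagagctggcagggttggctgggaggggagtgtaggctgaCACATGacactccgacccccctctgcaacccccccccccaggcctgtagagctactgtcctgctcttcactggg
Chrna1 (chr2:73580339-73580588, minus strand): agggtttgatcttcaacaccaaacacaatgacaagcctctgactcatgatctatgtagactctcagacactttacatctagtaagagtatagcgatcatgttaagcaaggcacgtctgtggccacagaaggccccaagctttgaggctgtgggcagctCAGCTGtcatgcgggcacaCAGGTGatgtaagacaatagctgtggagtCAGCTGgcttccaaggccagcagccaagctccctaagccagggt
Actc1 (chr2:114052888-114053125, minus strand): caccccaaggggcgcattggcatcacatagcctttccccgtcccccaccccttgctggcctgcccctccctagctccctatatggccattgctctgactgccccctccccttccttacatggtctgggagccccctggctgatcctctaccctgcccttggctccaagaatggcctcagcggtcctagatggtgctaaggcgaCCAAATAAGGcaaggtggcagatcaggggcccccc
Both strands are covered by the search, since each motif reads the same on both strands. A narrower form, CAGCTG, is contained in the wider motif. In the 250 bases before the start, CANNTG was found in 5 of the 8 promoters, against 66.2% of 32817 promoters of that length. Of the windows not printed, Myh3 and Myh8 had 1 match each, and Pax7 and Myf5 had no match. The narrower form was found in 2 of the 8 (Chrng and Chrna1, 2 matches each), against 13.0% of all, and the CArG box in 1 (Actc1), against 1.47%. The matches describe letters in these windows and are not evidence of binding.

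Total counts ranged from 48329668 to 76938132 per sample. Cthrc1 had 0 to 15 counts in each library labelled Cthrc1-/- and at least 1813 in each WT library, which fits the labels. Mature muscle was present in every sample: the summed FPKM of 20 mature fibre genes ranged from 470 to 1066 in WT day 0, from 107 to 416 in Cthrc1-/- day 0, from 191 to 1720 in WT day 7 and from 165 to 395 in Cthrc1-/- day 7. The 8 fibroblast genes summed to 384 to 2569 FPKM in Cthrc1-/- day 0 and 2317 to 6686 FPKM in the other groups. The samples also held epidermis: the 7 keratinocyte genes summed to 2258 to 9439 FPKM. The 9 inner root sheath and hair shaft genes in the table summed to 3.68 to 6.48 FPKM in WT day 0, and to between 244 and 12673 FPKM in Cthrc1-/- day 0. In bulk tissue, fewer muscle cells and less RNA per cell cannot be told apart, and the part of sample composition in the differences below was not tested.

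The stem cell and commitment factors were low throughout. Levels are in FPKM, the authors' fragment counts scaled to transcript length and library size, on which genes can be compared. Pax7 (ENSMUSG00000028736, chromosome 4, 139737062 to 139833528, minus strand, GRCm38) had 0.405, 0.283 and 0.417 FPKM in WT day 0 and 0.158, 0.0685 and 0 FPKM in Cthrc1-/- day 0. On day 7 it had 0.0279, 0.287 and 0.195 FPKM in WT and 0.274, 0.117 and 0.0826 FPKM in Cthrc1-/-. The 2 highest Pax7 levels lay in WT day 0, all WT day 0 samples were above all Cthrc1-/- day 0 samples, and the day 7 groups overlapped. Myf5 (ENSMUSG00000000435, chromosome 10, 107482908 to 107486134, minus strand), the earliest of the myogenic factors, had 0.533, 0.0836 and 0.705 FPKM in WT day 0, and 0, 0.110 and 0 FPKM in Cthrc1-/- day 0. On day 7 its levels were 0, 0.0473 and 0.103 FPKM in WT and 0.323, 0.255 and 0 FPKM in Cthrc1-/-. Every pair of groups compared overlapped for Myf5, and 4 of 12 samples had no count.

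Myod1 (ENSMUSG00000009471, chromosome 7, 46376474 to 46379099, plus strand), the factor that commits cells to the muscle lineage, had 0.828, 0.749 and 1.05 FPKM in WT day 0. In Cthrc1-/- day 0 it had 0.0833, 0 and 0 FPKM. On day 7 it had 0.0585, 1.05 and 0.473 FPKM in WT and 0.559, 0.538 and 0.459 FPKM in Cthrc1-/-. Cthrc1-/- day 0 was below every WT day 0 and every Cthrc1-/- day 7 sample, whereas WT day 7 overlapped both, with replicate 1 lowest.

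Myog, the differentiation factor (ENSMUSG00000026459, chromosome 1, 134289989 to 134292548, plus strand), had the highest mean of the 4 transcription factors over all samples, 1.16 FPKM, but the lowest of the 4 in Cthrc1-/- day 0. It had 1.74, 0.427 and 2.36 FPKM in WT day 0 and 0.0638, 0 and 0 FPKM in Cthrc1-/- day 0, where 7 counts were found in replicate 1 and none in replicates 2 and 3. On day 7 it had 0.354, 2.85 and 2.22 FPKM in WT and 0.999, 1.43 and 1.51 FPKM in Cthrc1-/-. The near absence in Cthrc1-/- day 0 stood apart from the other 9 samples, each of which had at least 0.354 FPKM. Mymk (ENSMUSG00000009214, chromosome 2, 27061636 to 27072179, minus strand), the fusion gene myomaker, was likewise not found in Cthrc1-/- day 0. It had 41, 0 and 61 counts in WT day 0, no count in any Cthrc1-/- day 0 sample, 4, 55 and 78 counts in WT day 7 and 31, 81 and 34 counts in Cthrc1-/- day 7. In FPKM these were 0.462, 0 and 0.748 in WT day 0, 0.0360, 0.471 and 0.730 in WT day 7 and 0.255, 0.688 and 0.325 in Cthrc1-/- day 7, so that both WT groups held a sample at or near 0. No count allows up to 3, which in the Cthrc1-/- day 0 libraries corresponds to 0.0461, 0.0548 and 0.0621 CPM (counts scaled to library size). Against the mean of these floors, Mymk was at least 12.4-fold lower in Cthrc1-/- day 0 than in WT day 0 and at least 13.2-fold higher in Cthrc1-/- day 7 than in Cthrc1-/- day 0. Without WT day 0 replicate 3 the first bound was 7.14-fold, and without WT day 0 replicate 2 it was 18.7-fold. These floors cover counting error only.

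**Figure D1:**
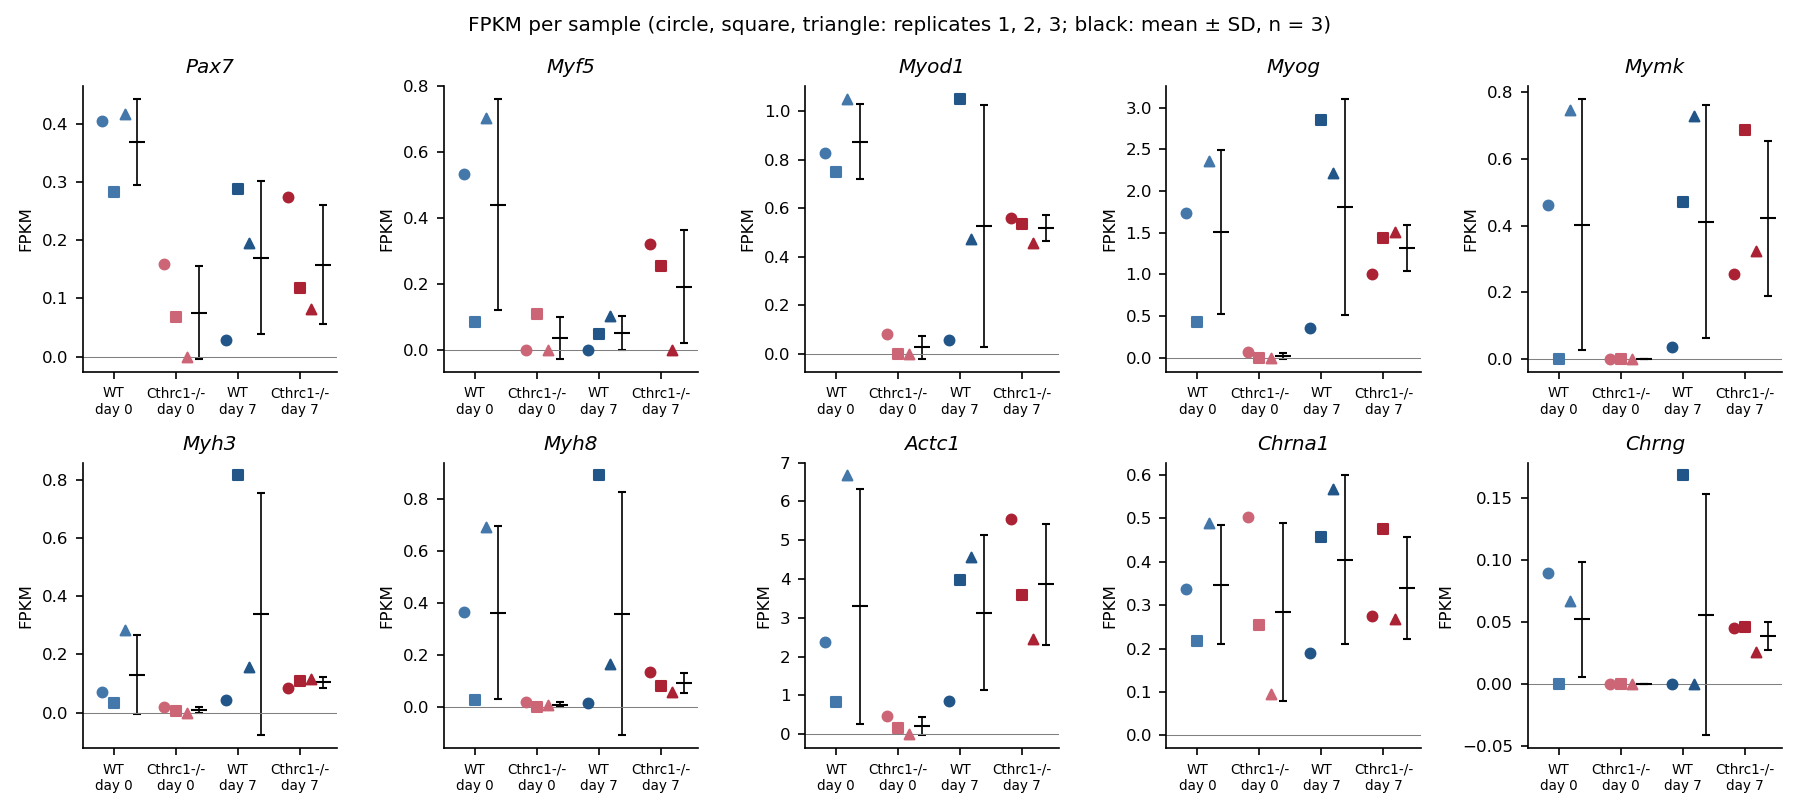
FPKM (vertical axes, linear, a scale for each gene) of the 10 myogenic genes in the 12 samples, by group (horizontal axis). Points are replicates and black marks are mean ± SD (n = 3). Apart from Chrna1, Pax7 and Myf5, the points of Cthrc1-/- day 0 lie at or near 0, and WT day 7 replicate 1 is the lowest WT day 7 sample for Myod1, Myog and Actc1.

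The developmental contractile genes were next. Myh3 (embryonic myosin heavy chain, ENSMUSG00000020908, chromosome 11, 67078300 to 67102291, plus strand) and Myh8 (perinatal myosin heavy chain, ENSMUSG00000055775, chromosome 11, 67277124 to 67308634, plus strand) flank the adult Myh2, Myh1 and Myh4 genes in 1 cluster and lie 174832 bases apart. Myh3 had 0.0707, 0.0334 and 0.285 FPKM in WT day 0 and 0.0210, 0.00458 and 0 FPKM in Cthrc1-/- day 0. On day 7 it had 0.0443, 0.814 and 0.156 FPKM in WT and 0.0836, 0.110 and 0.117 FPKM in Cthrc1-/-. The highest Myh3 level was in WT day 7 replicate 2, which also held the most mature fibre RNA. Myh8 had 0.363, 0.0270 and 0.693 FPKM in WT day 0, and 0.0176, 0 and 0.00599 FPKM in Cthrc1-/- day 0. On day 7 Myh8 had 0.0159, 0.889 and 0.165 FPKM in WT and 0.135, 0.0809 and 0.0570 FPKM in Cthrc1-/-. In both WT groups its replicates differed by more than the group means did. Of the 100-base stretches of Myh8 transcripts, 3.38% also occur in other myosin genes (Myh1, Myh13, Myh2 and Myh4), against 1.13% for Myh3. Reads from such stretches could have been divided between genes. The adult genes were more abundant: in WT day 7 replicate 2, Myh1, Myh2 and Myh4 had 23720, 4111 and 21897 counts, against 799 for Myh8. How much of the Myh8 level came from such reads was not tested.

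Actc1 (cardiac alpha-actin, ENSMUSG00000068614, chromosome 2, 114047282 to 114053548, minus strand) was the most abundant of the 10 genes, with a mean of 2.62 FPKM over the 12 samples. It had 2.38, 0.827 and 6.67 FPKM in WT day 0 and 0.463, 0.153 and 0 FPKM in Cthrc1-/- day 0. On day 7 it had 0.855, 3.99 and 4.56 FPKM in WT and 5.55, 3.58 and 2.46 FPKM in Cthrc1-/-. Cthrc1-/- day 0 was again the lowest group, without overlap with WT day 0 or Cthrc1-/- day 7. Actc1 shared no 100-base stretch with a transcript of another gene. Actc1 is also the actin of heart muscle. The 8 cardiac marker genes summed to 1.82 to 2.10 FPKM in WT day 0, 1.27 to 2.92 FPKM in Cthrc1-/- day 0, 1.73 to 2.74 FPKM in WT day 7 and 2.12 to 3.27 FPKM in Cthrc1-/- day 7, and their part in the Actc1 level was not tested. Within that list Tnni3 ranged from 1.17 to 2.72 FPKM, Myl2 reached 1.14 FPKM and Myl7 0.621 FPKM, whereas Myh6 and Nppa were at most 0.05 and 0.242 FPKM in any sample.

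Chrna1 and Chrng encode subunits of the acetylcholine receptor of muscle. Chrna1 (ENSMUSG00000027107, chromosome 2, 73563215 to 73580338, minus strand) encodes the alpha subunit that fetal and adult muscle receptors share. It had 0.338, 0.217 and 0.488 FPKM in WT day 0, 0.503, 0.254 and 0.0954 FPKM in Cthrc1-/- day 0, 0.190, 0.456 and 0.568 FPKM in WT day 7 and 0.276, 0.477 and 0.269 FPKM in Cthrc1-/- day 7. It was the only 1 of the 10 genes with counts in all 12 samples, and its groups overlapped throughout. Chrng (ENSMUSG00000026253, chromosome 1, 87204657 to 87212694, plus strand), the fetal gamma subunit, had 22, 0 and 16 counts in WT day 0, none in Cthrc1-/- day 0, 0, 55 and 0 in WT day 7, and 15, 16 and 8 in Cthrc1-/- day 7. In FPKM these were 0.0898, 0 and 0.0670 in WT day 0, 0, 0.168 and 0 in WT day 7 and 0.0452, 0.0463 and 0.0261 in Cthrc1-/- day 7. Chrng thus had counts in all Cthrc1-/- day 7 samples, in 2 of 3 WT day 0 samples and in 1 of 3 WT day 7 samples. Its mean of 0.0369 FPKM over all samples was below the minimum of 0.1 FPKM set for testing. Set against 3 counts per library, Chrng was at least 4.57-fold lower in Cthrc1-/- day 0 than in WT day 0 and at least 3.51-fold higher in Cthrc1-/- day 7 than in Cthrc1-/- day 0. Without WT day 0 replicate 1 the first of these bounds was 3.02-fold. With no filter on low values its edgeR adjusted p was 0.262 between genotypes on day 0 and 0.440 between days in Cthrc1-/-. In Cthrc1-/- day 0, 3, 5 and 8 of the 10 genes had no count in replicates 1, 2 and 3, against 0 to 2 of the 10 in each sample of the other groups.

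The first comparison was day 7 against day 0 in WT, which addresses whether muscle genes of repair are raised in the normal wound. None of the 9 genes tested passed (edgeR quasi-likelihood test, adjusted over 21876 genes, adjusted p from 0.264 to 0.997), where 8.41% of all genes tested were called, and 0 of the 9 had an unadjusted p under 0.05, as 27.9% of all genes did. DESeq2 called none of them either. The log2 changes were below 0 for 6 genes and above 0 for 3, with a median of -0.24 beside 0.00 over all genes. Myog had a mean of 1.51 ± 0.987 FPKM on day 0 and 1.81 ± 1.3 FPKM on day 7 (SD, n = 3 each), a log2 ratio of 0.04 (standard error, SE, 0.919, adjusted p 0.987 by edgeR). Myh3 had the largest value above 0, at 1.16 (SE 1.12, adjusted p 0.545 by edgeR), and Myf5 the lowest, at -3.27 (SE 1.78, adjusted p 0.264 by edgeR). Pax7 and Myod1 had log2 changes of -1.32 (SE 1.09) and -0.94 (SE 1.04). For Myh8, Mymk, Actc1 and Chrna1 the log2 changes were -0.24 (SE 1.29), -0.19 (SE 1.38), -0.30 (SE 1.03) and 0.01 (SE 0.599). Apart from Chrna1 the standard errors were between 0.919 and 1.78, close to or above a 2-fold change. In FPKM none of the 10 genes was separate between the days, whereas 24.8% of all genes tested were higher and 13.5% lower on day 7 without overlap.

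In Cthrc1-/- mice, day 7 against day 0 gave log2 changes above 0 for all 9 tested genes, with a median of 3.27 beside 0.00 over all genes. None passed (edgeR adjusted p from 0.0612 to 0.982), where 1.04% of all genes tested were called; 5 of the 9 had an unadjusted p under 0.05, as 15.9% of all genes did. Myog came closest, with a mean of 0.0213 ± 0.0368 FPKM on day 0 and 1.31 ± 0.274 FPKM on day 7 (SD, n = 3 each), a log2 ratio of 5.54 (SE 1.21, adjusted p 0.0612 by edgeR). Myog passed with DESeq2 (adjusted p 1.04e-05), as did Mymk, Actc1 and Myod1 (adjusted p 0.00233, 0.00387 and 0.0107), where DESeq2 called 7.89% of all genes. Of 10 alternative settings, 4 called Myog here: DESeq2, total-count scaling, limma on log2(FPKM + 0.1) and mature muscle content as a covariate. The other 6 did not (highest adjusted p 0.126). Of 12 fits without 1 library, Myog passed in 1, without WT day 7 replicate 1 (edgeR adjusted p 0.0239). In the other 11 it did not pass (highest edgeR adjusted p 0.174). Actc1 had a log2 ratio of 3.95 (SE 1.18, adjusted p 0.137 by edgeR), Myod1 of 3.81 (SE 1.23, adjusted p 0.163 by edgeR), Myh8 of 3.27 (SE 1.51, adjusted p 0.323 by edgeR) and Myh3 of 3.16 (SE 1.28, adjusted p 0.262 by edgeR). Myf5, Pax7 and Chrna1 had 2.21 (SE 1.77), 0.82 (SE 1.10) and 0.06 (SE 0.600). Mymk had an edgeR adjusted p of 0.145. In FPKM, day 7 lay above day 0 without overlap for 7 of the 10 genes (Myod1, Myog, Mymk, Myh3, Myh8, Actc1 and Chrng), as it did for 19.9% of all genes tested; none lay below, as did 4.85% of all genes. Summed FPKM of the 20 mature fibre genes ranged from 107 to 416 on day 0 and from 165 to 395 on day 7 in these mice, so the amount of mature fibre RNA overlapped between the same samples.

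**Figure D2:**
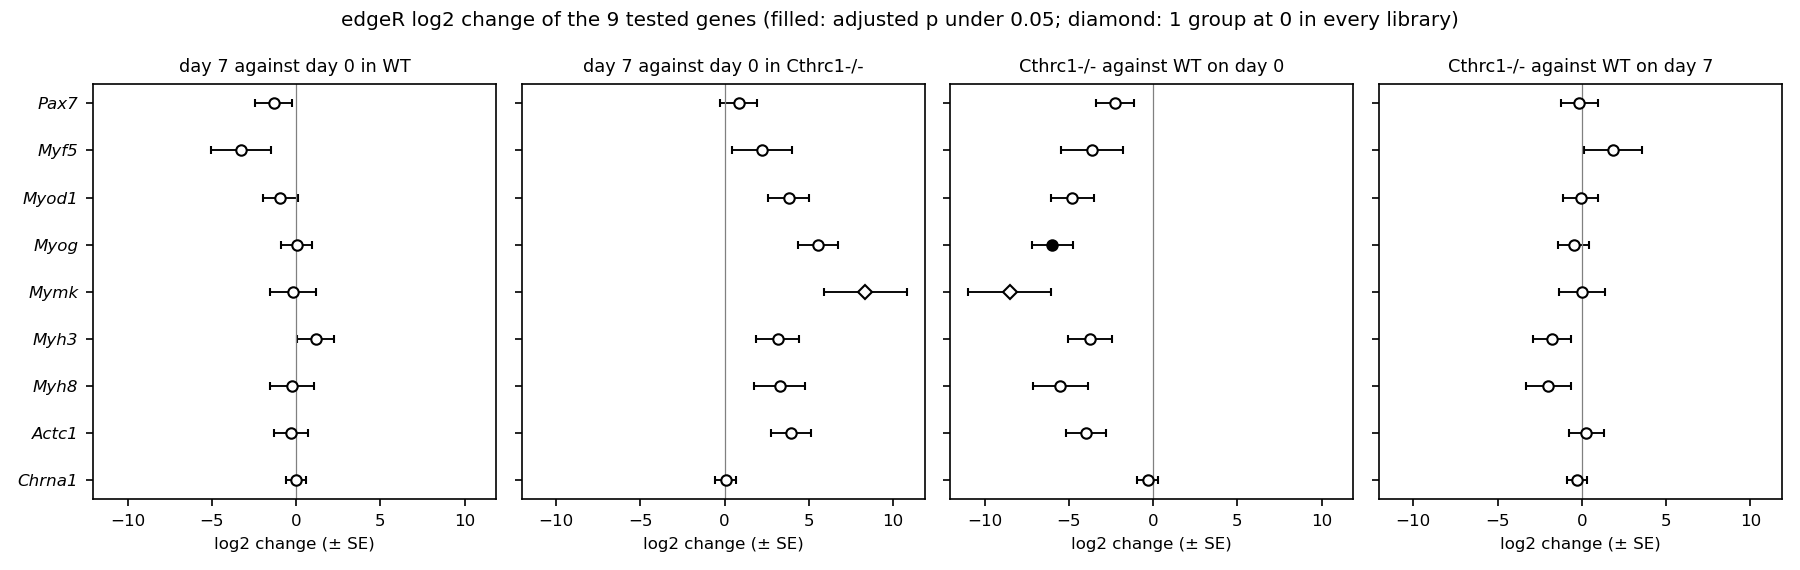
edgeR log2 change (horizontal axis) with its standard error for the 9 tested genes (vertical axis) in 4 comparisons. Filled points passed an adjusted p under 0.05, which only Myog in Cthrc1-/- against WT on day 0 did here; diamonds mark Mymk where the Cthrc1-/- day 0 group has no count, so that the fitted size is not a measured fold.

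On day 0, Myog was lower in Cthrc1-/- than in WT, and the other tested genes had values in the same direction without passing. All 9 tested genes had a lower fitted level in Cthrc1-/- (median log2 change -3.98, beside -0.06 over all genes), and 1, Myog, passed, where 1.93% of all genes tested were called, 0.585% as lower. Myog had a log2 ratio of -6.00 (SE 1.23, adjusted p 0.0417 by edgeR). That call was lost without any 1 of 10 of the 12 libraries (the highest adjusted p was 0.128, without WT day 0 replicate 3) and was kept without Cthrc1-/- day 0 replicate 1 or WT day 7 replicate 1. It was also lost when only the day 0 samples were fitted (edgeR adjusted p 0.112), with mature muscle content as a covariate (edgeR adjusted p 0.157), with the replicate number as a block (edgeR adjusted p 0.0637), and with limma on log2(FPKM + 1) (adjusted p 0.103). With DESeq2 the adjusted p was 1.10e-06, and Mymk, Myod1, Myh3, Myh8 and Actc1 passed as well (adjusted p from 0.000463 for Myod1 to 0.0162 for Myh3), where DESeq2 called 14.2% of all genes. Of the genes that did not pass, Myod1 had a log2 ratio of -4.81 (SE 1.27, adjusted p 0.0694 by edgeR), Myh8 of -5.51 (SE 1.63, adjusted p 0.0901 by edgeR) and Actc1 of -3.98 (SE 1.18, adjusted p 0.0905 by edgeR). Myh3, Myf5 and Pax7 had -3.74 (SE 1.3), -3.62 (SE 1.84) and -2.29 (SE 1.14), and Chrna1 had -0.34 (SE 0.602, adjusted p 0.772 by edgeR). The edgeR adjusted p of Mymk was 0.0940. In FPKM, 6 genes (Pax7, Myod1, Myog, Myh3, Myh8 and Actc1) were lower in Cthrc1-/- without overlap, as were 17.8% of all genes tested. None was higher without overlap, as were 17.0% of all genes. The mature fibre genes had values in the same direction: their summed FPKM was 731 ± 305 in WT and 268 ± 155 in Cthrc1-/- (SD, n = 3 each), 0 of 19 tested fibre genes passed, and the median log2 change was -1.52. The Cthrc1-/- day 0 libraries differed from each other in several measures at once. Replicates 1, 2 and 3 had 327, 125 and 27 counts summed over the 10 genes, 416, 279 and 107 FPKM of mature fibre genes, 2569, 1405 and 384 FPKM of fibroblast genes and 244, 5144 and 12673 FPKM of hair genes. The part of these in the day 0 difference was not tested beyond the fit with mature muscle content.

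On day 7 no difference between the genotypes passed in these genes. None of the 9 passed (edgeR adjusted p 1 for each), where 0.0137% of all genes tested were called, and DESeq2 called none. None had an unadjusted p under 0.05, as 5.18% of all genes did, and the FPKM ranges of all 10 genes overlapped, where 6.63% of all genes tested were higher and 2.77% lower in Cthrc1-/- without overlap. The log2 changes were 1.85 for Myf5 (SE 1.71), 0.27 for Actc1 (SE 1.03) and 0.02 for Mymk (SE 1.38). They were -0.06 for Myod1 (SE 1.04), -0.14 for Pax7 (SE 1.08), -0.29 for Chrna1 (SE 0.599) and -0.49 for Myog (SE 0.921). Myh3 and Myh8 had the lowest values, -1.74 (SE 1.13) and -1.99 (SE 1.35). With mature muscle content as a covariate the values for Myh3, Myh8, Myog, Myod1, Pax7 and Chrna1 changed sign, and none of the 9 genes passed there either. The mature fibre genes had lower values in Cthrc1-/- on day 7 too, with a median log2 change of -1.57. None of the 19 tested passed with edgeR, 9 had an unadjusted p under 0.05, and their summed FPKM overlapped between the genotypes. WT day 7 replicate 2, with 1720 summed FPKM of mature fibre genes against 191 and 374 in the other WT day 7 samples, also held the most Myod1, Myog, Myh3, Myh8, Pax7 and Chrng of that group.

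Over both genotypes together, edgeR called 13.1% of all genes tested for the mean change from day 0 to day 7. As higher it called 6.37%, and as lower 6.75%. Of the 9 genes, it called Myog alone. Its log2 change was 2.79 (SE 0.748, adjusted p 0.0366 by edgeR). The call was lost without any 1 of 9 of the 12 libraries (highest adjusted p 0.0779, without Cthrc1-/- day 0 replicate 2) and kept without Cthrc1-/- day 0 replicate 1 or 3 or WT day 7 replicate 1; with the replicate block the edgeR adjusted p was 0.0723. The values within genotypes were 5.54 in Cthrc1-/- and 0.04 in WT. Myh3 had 2.16 (SE 0.848, adjusted p 0.119 by edgeR), Actc1 1.83 (SE 0.762, adjusted p 0.139 by edgeR), Myh8 1.52 (SE 0.982) and Myod1 1.43 (SE 0.782). Chrna1, Pax7 and Myf5 had 0.03 (SE 0.424), -0.25 (SE 0.770) and -0.53 (SE 1.22), and Mymk had an edgeR adjusted p of 0.0981. With DESeq2, Myog, Mymk, Myh3 and Actc1 passed (adjusted p 0.000497, 0.0136, 0.0324 and 0.0475), where DESeq2 called 4857 of all 21876 genes.

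The interaction of genotype and day tests the difference between those changes. None of the 9 genes passed (edgeR adjusted p from 0.242 to 0.991), where 0.00457% of all genes tested were called, and 4 of 9 (Myog, Myod1, Mymk and Actc1) had an unadjusted p under 0.05, as 13.1% of all genes did. Myog had an interaction of 5.51 on the log2 scale (SE 1.5, unadjusted p 0.00395, adjusted p 0.242 by edgeR), Myod1 of 4.75 (SE 1.60) and Actc1 of 4.25 (SE 1.54). Myf5 had 5.48 (SE 2.51), Myh8 3.52 (SE 1.97), Pax7 2.15 (SE 1.55), Myh3 2.00 (SE 1.65) and Chrna1 0.05 (SE 0.848), and the edgeR adjusted p of Mymk was 0.300. With DESeq2, Myog (adjusted p 0.005), Mymk (adjusted p 0.0440) and Myod1 (adjusted p 0.0472) passed, where DESeq2 called 3.3% of all genes.

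To set the 10 genes against the amount of muscle in each sample, their FPKM were divided by the summed FPKM of the 20 mature fibre genes, a measure chosen after the values had been seen and given as a description. Per 1000 FPKM of mature fibre genes, Myog had 2.65, 0.908 and 2.21 FPKM in WT day 0 and 0.153, 0 and 0 FPKM in Cthrc1-/- day 0. It had 1.85, 1.65 and 5.93 FPKM in WT day 7 and 2.53, 4.54 and 9.16 FPKM in Cthrc1-/- day 7. Cthrc1-/- day 0 thus stayed apart from WT day 0 and from Cthrc1-/- day 7 on this scale. Actc1 on the same scale had 3.63, 1.76 and 6.26 in WT day 0, 1.11, 0.550 and 0 in Cthrc1-/- day 0, 4.47, 2.32 and 12.2 in WT day 7 and 14.0, 11.4 and 14.9 in Cthrc1-/- day 7. Myod1 had 1.26, 1.59 and 0.985 in WT day 0, 0.200, 0 and 0 in Cthrc1-/- day 0, 0.306, 0.611 and 1.27 in WT day 7 and 1.41, 1.71 and 2.78 in Cthrc1-/- day 7. Relative to mature fibre genes, 7 of the 10 genes were higher on day 7 than on day 0 without overlap in Cthrc1-/-, as were 7.62% of all genes tested on the same scale. In WT 0 of 10 were, and 4.52% of all genes. Chrna1, in contrast to Myog, was higher in Cthrc1-/- on this scale on day 0, with 0.515, 0.460 and 0.458 in WT and 1.21, 0.912 and 0.888 in Cthrc1-/-. The fibre sum it was divided by was lower there, at 268 ± 155 FPKM against 731 ± 305 FPKM in WT (SD, n = 3 each). Chrna1 FPKM itself overlapped. The share of all genes on this scale was not computed between genotypes. On day 0, 6 of the 10 genes were lower without overlap, 1 was higher and 3 overlapped. On day 7, 2 were higher in Cthrc1-/- (Myod1 and Chrng) and 8 overlapped.

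**Figure D3:**
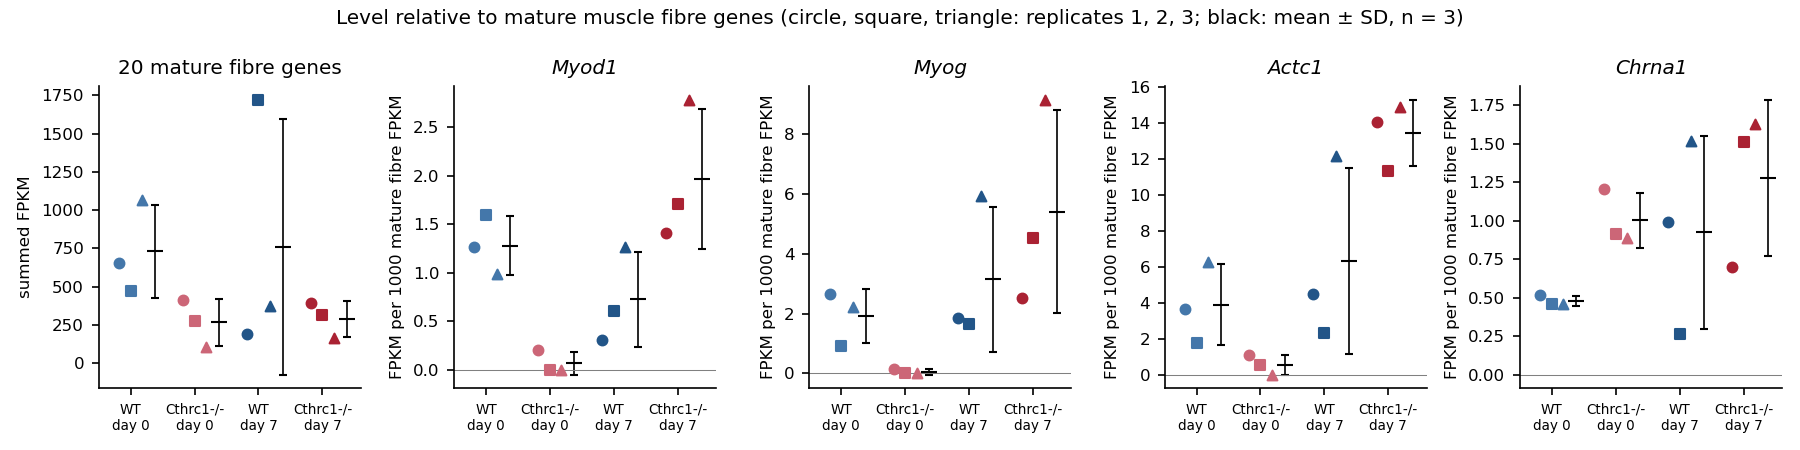
Summed FPKM of 20 mature muscle fibre genes (left) and FPKM of Myod1, Myog, Actc1 and Chrna1 per 1000 of that sum (vertical axes), by group. Points are replicates and black marks are mean ± SD (n = 3). Myog per 1000 lies between 0 and 0.153 in Cthrc1-/- day 0 and at 0.908 or above in every other sample.

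Shares within gene pairs or families do not scale with the amount of muscle if both parts come from the same fibres, which was not tested. For testing between days, 3 were set, by exact permutation of the day within each genotype (two-sided). Myh3 and Myh8 together made up 5.39%, 0.771% and 4.41% of the FPKM of 6 sarcomeric myosin heavy chain genes in WT day 0, and 0.897%, 0.199% and 0.930% in Cthrc1-/- day 0. On day 7 they made up 1.51%, 1.61% and 2.25% in WT and 3.84%, 4.87% and 10.2% in Cthrc1-/-. Actc1 made up 1.5%, 0.708% and 2.35% of the FPKM of Actc1 and the adult skeletal actin Acta1 in WT day 0, 0.427%, 0.197% and 0% in Cthrc1-/- day 0, 1.40%, 0.865% and 4.73% in WT day 7 and 5.21%, 4.06% and 5.17% in Cthrc1-/- day 7. Acta1 itself had 157, 116 and 278 FPKM in WT day 0, 108, 77.6 and 27.9 FPKM in Cthrc1-/- day 0, 60.4, 457 and 91.9 FPKM in WT day 7 and 101, 84.5 and 45.1 FPKM in Cthrc1-/- day 7, so its levels overlapped between the days in Cthrc1-/- while those of Actc1 did not. The mean difference between days was 1.94 percentage points for the myosins (exact permutation p 0.255, adjusted over the 3 shares 0.267) and 2.71 for Actc1 (exact permutation p 0.0350, adjusted 0.105). Neither passed after adjustment. Within Cthrc1-/- the days did not overlap in either share, with differences of 5.61 and 4.60 percentage points; the exact permutation p was 0.1 for each, the smallest that 3 against 3 samples can give. In WT the differences were -1.74 (exact permutation p 0.400) and 0.813 (exact permutation p 0.700). The share of the fetal Chrng in the FPKM of Chrng and the adult subunit gene Chrne rested on at most 73 counts per sample and was undefined in WT day 0 replicate 2 and WT day 7 replicate 1, which had neither. Those samples were left out. It was 46.4% and 35.4% in the other WT day 0 samples, 0% in each Cthrc1-/- day 0 sample, 56.4% and 0% in WT day 7 and 33.2%, 69.3% and 100% in Cthrc1-/- day 7, a mean difference between days of 27.4 percentage points (exact permutation p 0.267, adjusted 0.267). Without Cthrc1-/- day 7 replicate 3 the difference was 0.971 percentage points for the myosins, and without WT day 0 replicate 2 it was 1.25. For Chrng it was 13.3 without WT day 7 replicate 2 and 41.5 without WT day 7 replicate 3, and for Actc1 it ranged from 2.11 to 3.07 over all 12 such fits. The zeros in Cthrc1-/- day 0 rest on 25, 6 and 8 counts of Chrne.

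**Figure D4:**
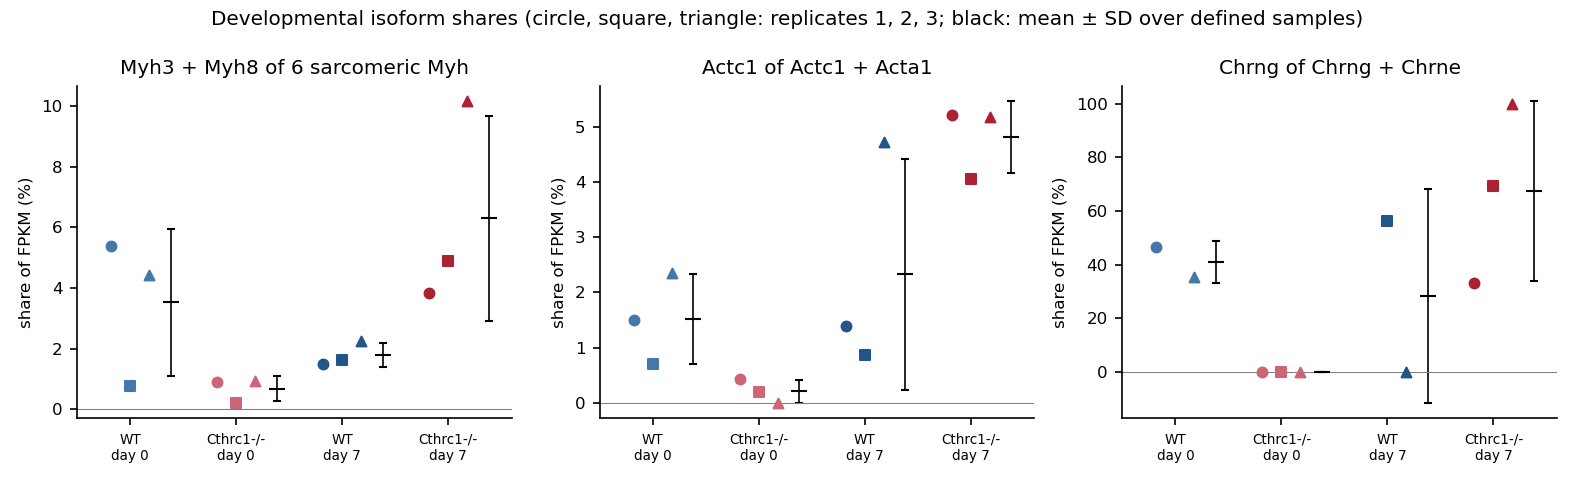
Share (percent of FPKM, vertical axes) of Myh3 and Myh8 among 6 sarcomeric myosin heavy chain genes, of Actc1 in Actc1 and Acta1, and of Chrng in Chrng and Chrne, by group. Points are replicates and black marks are mean ± SD over the samples with a defined share; Cthrc1-/- day 7 has the highest points, up to 10.2%, 5.21% and 100%.

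Other genes of the myogenic programme were examined as a list of 35, of which 29 passed the filter. Over both genotypes, 6 of the 29 were called higher on day 7 and 0 lower, where 6.37% of all genes were called higher and 6.75% lower, with a median log2 change of 0.00 beside 0.02 over all genes. Cdkn1c, an inhibitor of the cell cycle, had 1.20 on the log2 scale (edgeR adjusted p 0.0182), a call kept in 11 of 12 fits that each left out 1 library. Heyl, a Notch target, had 1.41 (edgeR adjusted p 0.0255, kept in 5 of 12), and Ankrd1, a stretch-responsive gene, had 1.89 (edgeR adjusted p 0.0296, kept in 8 of 12). Tnnt1 (kept in 2 of 12) and Myl4 (kept in 3 of 12) were also called, which encode slow troponin T and the atrial and embryonic myosin light chain. Cdkn1c and Heyl are also expressed outside muscle, and which cells the transcripts of the called genes came from was not tested. Within genotypes, 1 of 29 was called higher between days in WT (Heyl, log2 change 2.27, edgeR adjusted p 0.0238) and 1 in Cthrc1-/- (Cdkn1c, 2.18, edgeR adjusted p 0.0366). Of all genes tested, 8.41% were called between days in WT and 1.04% in Cthrc1-/-. Between genotypes 1 was called lower in Cthrc1-/- on day 0 (Ankrd1, log2 change -3.41, edgeR adjusted p 0.0450), a call kept in 2 of 12 such fits. Of all genes, 0.585% were called lower there. In that comparison 4 of the 29 had a log2 change above 0, with a median of -0.92 beside -0.06 over all genes. An edgeR unadjusted p under 0.05 was found for 12 of the 29, beside 5219 of all 21876 genes. DESeq2 called 8 of the 29 there, beside 14.2% of all genes. None of the 29 was called on day 7 (1 at an unadjusted p under 0.05, 0 by DESeq2) or in the interaction (6 and 1). Of all genes, 5.18% on day 7 and 13.1% in the interaction had an unadjusted p under 0.05. DESeq2 called 3.3% of all genes in the interaction. Of 19 mature fibre genes tested, 0 passed with edgeR in any of the 6 comparisons. At an unadjusted p under 0.05 there were 3 between genotypes on day 0, beside 5219 of all 21876 genes. On day 7 there were 9, beside 5.18% of all genes. Between days in WT there was 1, beside 27.9% of all genes, and there were 0 in the other 3 comparisons. DESeq2 called 2 on day 7, where it called 77 of all genes, and none elsewhere. Between genotypes, 0 of the 19 had a log2 change above 0 on either day. The median was -1.52 on day 0 and -1.57 on day 7.

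The genes whose levels followed Myog and Myh3 most closely over the 12 samples were ranked by Pearson's r of log2(FPKM + 1) among 14311 genes with a mean of at least 1 FPKM; the samples share group and composition, and these values are descriptions. For Myh3 they were Myh2 (r 0.929), Tmem38a (0.928), Cdc42bpa (0.917), Pfkm (0.910) and Actn2 (0.909), against 0.766 for Acta1. Myh2, Tmem38a, Pfkm and Actn2 are known from muscle fibres. For Myog they were 2310022B05Rik (r 0.884), Mir7005 (0.880), Adcy3 (0.875), Gm38317 (0.874) and Fam198b (0.864), against 0.627 for Acta1. None of these 5 is a known contractile gene of muscle. In WT day 7 replicate 2, Myh3 had 0.814 FPKM and Myh2 had 7.55 FPKM. In the other samples Myh3 reached at most 0.285 FPKM and Myh2 at most 1.23 FPKM. How far the Myh3 correlations rest on that library was not tested.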

How the data were processed

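RNA was measured in 12 dermis samples, whose titles give group and replicate. Strand-marked poly(A) libraries with molecular identifiers were made by the dUTP method, per the labels' protocols. The submitters' processing notes name cutadapt 1.9, HISAT2 2.0.4, UMI-tools, StringTie 1.3.4d, DESeq2, edgeR and GRCm38, without their order; whether counts were collapsed on identifiers is not given in the sources used here. The deposited table holds whole-number counts and FPKM for 55401 genes, both made by the authors. Each count of 0 carried a deposited FPKM of 0.0001, set here to 0. Low counts cluster at multiples of 4 (3.16 to 4.05 times as many genes at 4 as the mean of those at 3 and 5), so 1 count may not stand for 1 fragment in low genes, and the floor of 3 counts used for genes with no count could be too low. Symbols and GRCm38 positions came from GENCODE M21 (55141 IDs matched); no value column was left unused (0).

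Counts were tested with edgeR 4.0.16 (quasi-likelihood, TMM, two-sided, 1 mean per group, all 12 samples) in R 4.3.3 over the 21876 genes whose FPKM averaged 0.1 or more, a lower minimum than 1 FPKM, which only 2 of the 10 members reach; 9 of the 10 were tested. Adjustment was by Benjamini-Hochberg, with calls below 0.05. Standard errors are the absolute log2 change over the square root of F. Alternatives were DESeq2 1.42.0 (without independent filtering), limma 3.58.1 on log2(FPKM + 1) and log2(FPKM + 0.1), total-count scaling, other filters, counts divided by 4, a replicate block, fits of only the groups compared, mature muscle content as a covariate, and each replicate left out. The edgeR fit was also run on simulated counts with changes set between the days in WT. That simulation was not set up for genes with no count in a group or for the clustering of low counts. All 10 members were named in every comparison, from other lists up to 4 called genes by smallest p, and for Myog and Myh3 the 5 most similar genes. The values of 1 called list gene are not reported here. The lists, members and rules were chosen with earlier results of these data known. The spread between replicates may be technical in part, since their source animals are not stated.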

Additional observations from a re-analysis of the deposited data

How the results depend on the processing

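The calls on single genes were more dependent on the settings than the per-sample values. Myog on day 0 stayed past the threshold in 6 of 10 alternatives (adjusted p from 1.10e-06 to 0.157) and in 2 of 12 fits that left out 1 library, and its mean change between days in 7 of 9 and in 3 of 12. Over all 9 genes and 6 comparisons, 430 values kept direction and call under the alternatives, 19 changed sign, 25 passed newly and 6 no longer passed, while leaving out 1 library gave 580, 44, 5 and 19. All values that changed sign belonged to results that had not passed. In log2 terms, with mature muscle content as a covariate the difference between genotypes on day 7 became 1.43 for Pax7, 1.80 for Myod1, 0.85 for Myog, 0.96 for Myh3, 0.93 for Myh8 and 0.39 for Chrna1, that on day 0 became 0.36 for Chrna1, and the day difference in WT became 0.42 for Actc1 and 0.16 for Mymk. With limma the day 7 difference was 0.0427 for Myod1 at a pseudocount of 1, and 0.39 for Myod1 and 0.00797 for Pax7 at 0.1. In WT the limma day differences were 0.0391 and 0.0743 for Actc1 and 0.0152 and 0.15 for Mymk at pseudocounts of 1 and 0.1, and the Myh3 interaction at 1 was -0.0780. Mymk was 0.0665 between days in WT with total-count scaling and -0.0479 between genotypes on day 7 with counts divided by 4. The cause of these changes was not tested.

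The number of genes called moved with the tool. In the order day 0, day 7, days in WT, days in Cthrc1-/-, mean of both and interaction, edgeR called 423, 3, 1840, 227, 2870 and 1, and DESeq2 3114, 77, 4254, 1726, 4857 and 723. On day 0 there were 827 with a minimum of 1 FPKM, 275 with no filter, 637 with limma at a pseudocount of 0.1, 6 when only the groups compared were fitted and 27 with the muscle covariate. On day 7 there were 6 with limma at either pseudocount, 1 with only the groups compared and 0 with the covariate. Days in Cthrc1-/- gave 625 with total-count scaling, 608 and 761 with limma at pseudocounts of 1 and 0.1, and 18 with only the groups compared. The interaction gave 2 with a minimum of 1 FPKM, 8 and 3 with limma at 1 and 0.1, and 0 with the covariate. Fits of only the groups compared were made for the 4 comparisons of a pair of groups. Total-count scaling moved the median log2 change of all genes to 0.18 between days in WT, 0.18 in Cthrc1-/- and 0.20 in their mean, and the share of calls that were higher from 47.1% to 72.7%, from 56.8% to 85.3% and from 48.6% to 78.5%. With limma at a pseudocount of 1 that share was 48.3% on day 0, where edgeR gave 69.7%.

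Same-numbered samples did not deviate together (correlations from -0.135 to 0.306), so the replicate numbers were not taken as pairs. With the replicate block, 275, 0, 1260, 196, 2374 and 1 genes were called, Myog had an adjusted p of 0.0637 on day 0 and 0.0723 in the mean of both genotypes, and the sign-flip p of the share differences between days was 0.406 for the myosins and 0.0625 for Actc1, with the same differences of 1.94 and 2.71 percentage points. The Chrng share moved from 27.4 to 41.8 percentage points (exact sign-flip p 0.375), over the pairs in which both samples had a share.

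Without 1 library at a time, the genes called ranged from 8 to 2054 on day 0, 0 to 4 on day 7, 459 to 3110 in WT, 3 to 885 in Cthrc1-/-, 1359 to 4104 in the mean and 0 to 80 in the interaction. Log2 values that changed sign ranged, on day 7, from -0.78 to 0.47 for Pax7, -0.59 to 0.94 for Myod1, -0.98 to 0.0020 for Myog, -2.57 to 0.0012 for Myh8, -0.53 to 0.67 for Mymk and -0.17 to 0.60 for Actc1. Between days in WT they ranged from -0.46 to 0.62 for Myog, -0.58 to 2.48 for Myh3, -2.24 to 0.65 for Myh8, -0.27 to 0.42 for Chrna1, -0.84 to 0.63 for Mymk and -0.76 to 0.75 for Actc1. In the mean of both genotypes they ranged from -0.57 to 0.32 for Pax7, -1.02 to 2.23 for Myf5 and -0.18 to 0.39 for Chrna1. Chrna1 ranged from -1.06 to 0.0845 on day 0, -0.37 to 0.78 in Cthrc1-/- and -0.37 to 0.78 in the interaction. A level under the floor of 3 counts, 0.0390 to 0.0621 CPM, could not be told from absence.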

Other observations

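Markers of other cell types that a skin sample can hold were summed in the same 12 samples. Of 8 smooth muscle genes, edgeR called Acta2 alone, the smooth muscle actin that myofibroblasts also use. Between genotypes on day 0 all 8 had an unadjusted p under 0.05, as did 5219 of all 21876 genes tested. DESeq2 called 7 of the 8 there, beside 14.2% of all genes. The direction was not the same for all: 1 of the 8 had a log2 change above 0. Smtn had a mean of 29.3 FPKM in Cthrc1-/- day 0 and 20.6 FPKM in WT day 0. Acta2 was lower in Cthrc1-/- than in WT on day 0 (log2 change -1.26, edgeR adjusted p 0.0473) and higher on day 7 than on day 0 in Cthrc1-/- (1.46, edgeR adjusted p 0.0436) and over both genotypes (0.72, edgeR adjusted p 0.0350). Without 1 library at a time these calls were kept in 2, 4 and 4 of 12 fits. The 8 genes summed to 114 to 188 FPKM in Cthrc1-/- day 0 and to 284 to 422 FPKM in the other groups. Of 8 macrophage genes, 5 were called higher on day 7 over both genotypes, where 6.37% of all genes were. The Fc receptor gene Fcgr1 led them (log2 change 3.32, edgeR adjusted p 0.0146, kept in 12 of 12 such fits). Of 7 Schwann cell genes, Ngfr (-1.78, edgeR adjusted p 0.0242, kept in 7 of 12) and S100b (-1.57, edgeR adjusted p 0.0246, kept in 8 of 12) fell between the days in WT. In that comparison 973 of all 21876 genes were called lower. Of 7 keratinocyte genes, Trp63 (-0.79, edgeR adjusted p 0.0356, kept in 3 of 12) and Krt5 (-0.93, edgeR adjusted p 0.0443, kept in 2 of 12) fell over both genotypes. Over all genes tested, 6.75% were called lower there. The log2 change was above 0 for 2 of the 7. Mean Krt1 was 370 FPKM on day 0 and 518 FPKM on day 7 in WT. In Cthrc1-/- it was 177 and 679 FPKM. None of the 8 fibroblast genes was called by edgeR in any comparison. Between genotypes on day 0, however, 7 of them had an unadjusted p under 0.05, beside 5219 of all 21876 genes. DESeq2 called 4 of the 8 there, beside 14.2% of all genes. Of 9 hair genes, 8 were called higher in Cthrc1-/- than in WT on day 0, where 1.35% of all genes were. Between days in WT, 8 were called higher on day 7, where 867 of all 21876 genes were. The part of these differences in the values of the myogenic genes was not tested.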
